A study of Bos taurus with 20 samples.

Results

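TXNIP, NUPR1, SLC25A25, ACSS1 and CNDP2 are genes of redox balance, stress response and energy metabolism that carried a name on arrays of bovine uterine endometrium. Every clone whose single gene symbol in the platform's gene table is one of these 5 was taken, which gave 23 of the 3072 clones of 2 spotted arrays. The 18KB array, made from a library enriched for transcripts of pregnant animals, held 21 of them: 14 clones of NUPR1, 3 of TXNIP, 2 of CNDP2 and 1 each of SLC25A25 and ACSS1. The 18KO array, from the opposite subtraction, held 1 clone of TXNIP and 1 of SLC25A25. Their Entrez gene identifiers are 506790 (TXNIP), 614673 (NUPR1), 527786 (SLC25A25), 282873 (ACSS1) and 512626 (CNDP2).

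One tissue set came from 4 pregnant Simmental heifers aged 17 to 20 months, inseminated with frozen sperm and slaughtered on day 18, each with an intact conceptus that was lifted out before sampling. The comparison tissue came from 6 control heifers aged 18 to 22 months on day 18 of the cycle, which had received sperm-free supernatant of the same bull's semen and held no conceptus. All 10 had been synchronised with the prostaglandin analogue cloprostenol, and the sample, cut from the lamina propria, was intercaruncular endometrium (between the sites where placentomes form) of the caudal horn on the ipsilateral side. RNA of each animal was labelled with 33P and hybridised to both arrays, so 20 columns stand for 10 animals.

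In cattle around this day the conceptus lies free in the uterine lumen, secretes interferon tau and lives on the secretions of the endometrium. Thioredoxin and glutathione keep protein thiols reduced in most cells. TXNIP, an alpha-arrestin that binds thioredoxin and restrains glucose uptake, is a known target of glucose-sensing transcription factors. NUPR1 is a small chromatin-associated protein induced by many kinds of cell stress. ACSS1 makes acetyl-CoA from acetate in mitochondria, SLC25A25 is a calcium-regulated carrier that exchanges ATP-Mg for phosphate across the inner mitochondrial membrane, and CNDP2 is a cytosolic dipeptidase whose substrates include cysteinylglycine, a product of glutathione breakdown.

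Of the 5 genes on the 18KB array, NUPR1, ACSS1 and TXNIP rose in pregnant endometrium, by 7.44-fold, 3.10-fold and 2.71-fold. CNDP2 (2.01-fold) and SLC25A25 (0.705-fold) did not pass the test there, and neither SLC25A25 nor TXNIP passed on the 18KO array, where TXNIP stood at 2.90-fold. In tissue RNA of this kind, fewer cells of a type and less RNA per cell cannot be told apart. Calls required a Benjamini-Hochberg adjusted p from limma, taken over the whole array, of less than 0.01 together with a change of 2-fold or more. The rows tested were the named genes and each clone without a single symbol. By that rule 15.6% of the rows of the 18KB array were called higher in pregnant animals and 0.634% lower, and on the 18KO array 0.884% were called higher and 3.87% lower. The members' 3 of 5 is to be read against the named genes of the 18KB array, of which 77.9% were called higher, because the authors sequenced chiefly clones they had already found to differ in these animals. The 3 calls are therefore not more than named genes of that array give. In either direction 88.4% of named genes and 11.5% of clones without a single symbol were called on the 18KB array, and 33.3% and 3.29% on the 18KO array. The median log2 fold change was 1.44 over the 5 members, 1.85 over the 86 named genes and 0.38 over all 1420 rows.

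**Figure D1:**
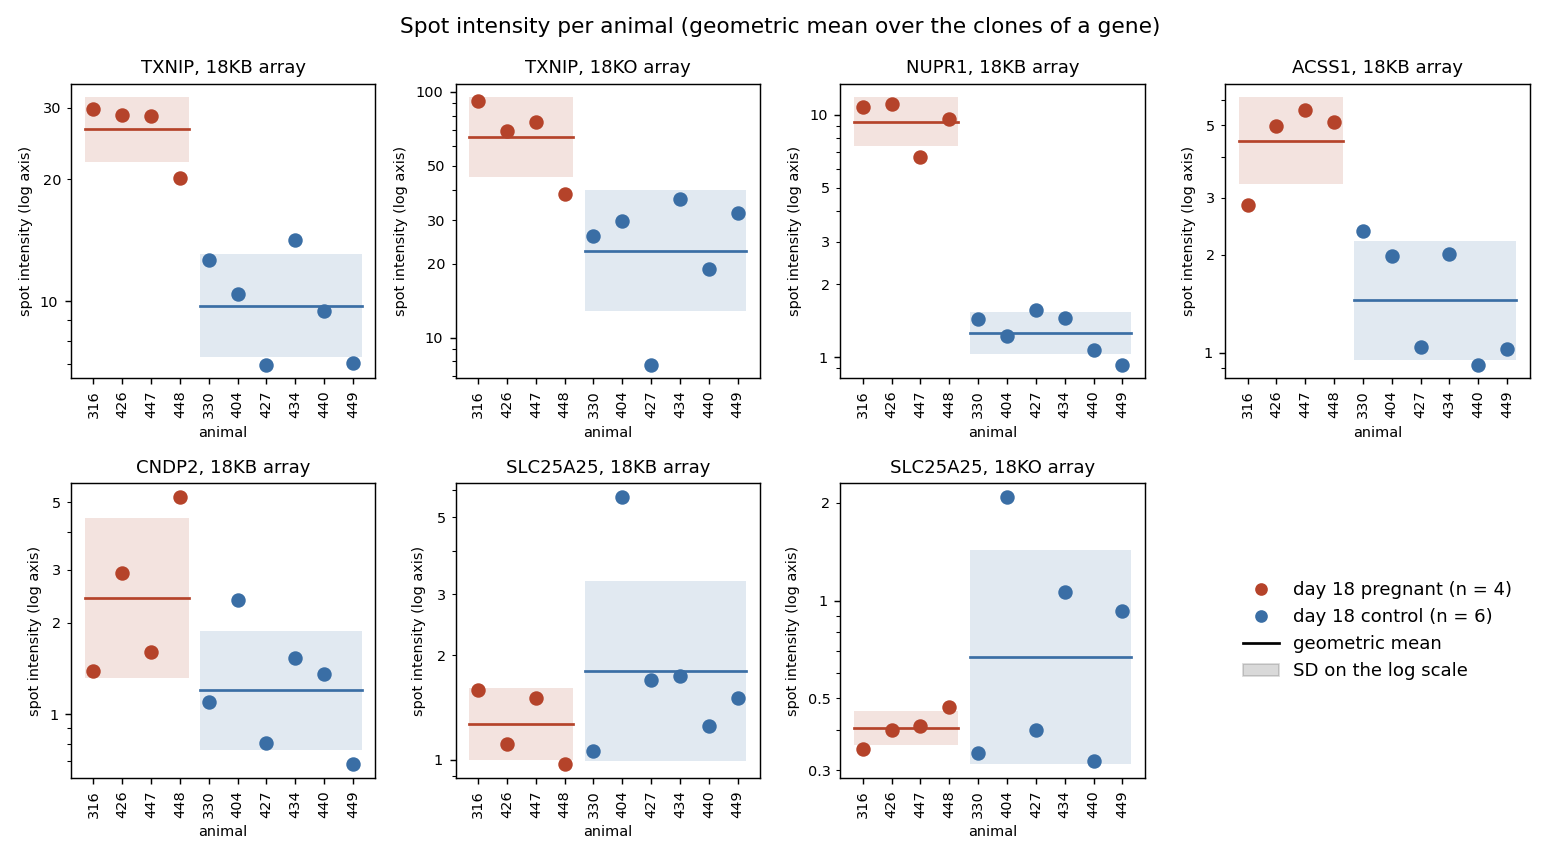
Spot intensity on a log axis of each gene in each animal, as the geometric mean over its clones, with the day 18 pregnant animals left and the controls right. Lines are group means and shaded bands the SD on the log scale. NUPR1, ACSS1 and TXNIP show no overlap between groups, CNDP2 and SLC25A25 do, and control 404 is the highest animal for SLC25A25 on both arrays (5.72 and 2.09).

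Intensities are on a linear scale as deposited, after a normalization that 1 label mentions and none describes. Columns did not share a median: on the 18KB array it ran from 2.50 to 3.18 in pregnant animals and from 1.39 to 1.90 in controls, and on the 18KO array from 1.67 to 2.36 in pregnant animals and from 2.03 to 3.90 in controls. The direction of the column shift therefore differs between the arrays. As deposited, 96.6% of called clones of the 18KB array were higher in pregnant animals. That share was 46.6% with equal column medians, 57.0% after quantile normalization and 90.2% with 1 factor per animal from both arrays. On the 18KO array the share was 15.7% as deposited, against 46.9%, 33.8% and 6.67% in the same order. Equal column medians also moved the array-wide middle of the log2 fold changes, to -0.39 instead of 0.44 over the 18KB clones and to 0.27 instead of -0.06 over the 18KO clones. With 4 and 6 animals, the precision of each value is limited by their number.

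NUPR1 showed the largest difference of the 5 genes. Its intensity was 10.8 for pregnant 316, 11.1 for 426, 6.68 for 447 and 9.66 for 448, whereas the controls lay between 0.931 and 1.56 around a median of 1.33. Every pregnant animal lay above every control, which was so for 22.3% of the rows of this array. Pregnant 447 was the lowest of its group and control 427 the highest of the controls. Log2 intensity averaged 3.23 ± 0.34 over the pregnant group (SD, n = 4) and 0.33 ± 0.29 over the controls (SD, n = 6), and the log2 fold change was 2.89 ± 0.21 (SE, as for all fold changes here, limma adjusted p = 2.00e-05). The two-sided exact permutation p was 0.00476, which is the smallest that the 210 splits of 10 animals allow. NUPR1 ranked 16 among the 86 named genes by its fold change.

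The 14 NUPR1 clones gave 14 readings of one transcript from the same RNA and are no replicates of the condition. All 14 were called higher, where 20.5% of all clones of the array were, and in all 14 the pregnant animals lay above every control, which held for 26.7% of all clones. Their log2 fold changes ran from 1.38 to 3.44 with a median of 3.09, that is from 2.60-fold to 10.8-fold. The smallest came from clone 18KB-07-D01, which read 12.3 to 19.0 in pregnant animals and 4.03 to 6.92 in controls. The other 13 clones lay between 2.33 and 3.44 on the log2 scale. In linear units 18KB-07-D01 rose by 9.25, within the range of the other 13 (6.02 to 10.955, median 8.05). Its control mean was 5.82, against 0.887 to 2.00 in the others.

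Averaging over clones therefore bears on the size of the NUPR1 fold change. When the brightest clone stood for each gene, which for NUPR1 is 18KB-07-D01, its log2 fold change was 1.38 ± 0.20 instead of 2.89, and it was still called.

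**Figure D2:**
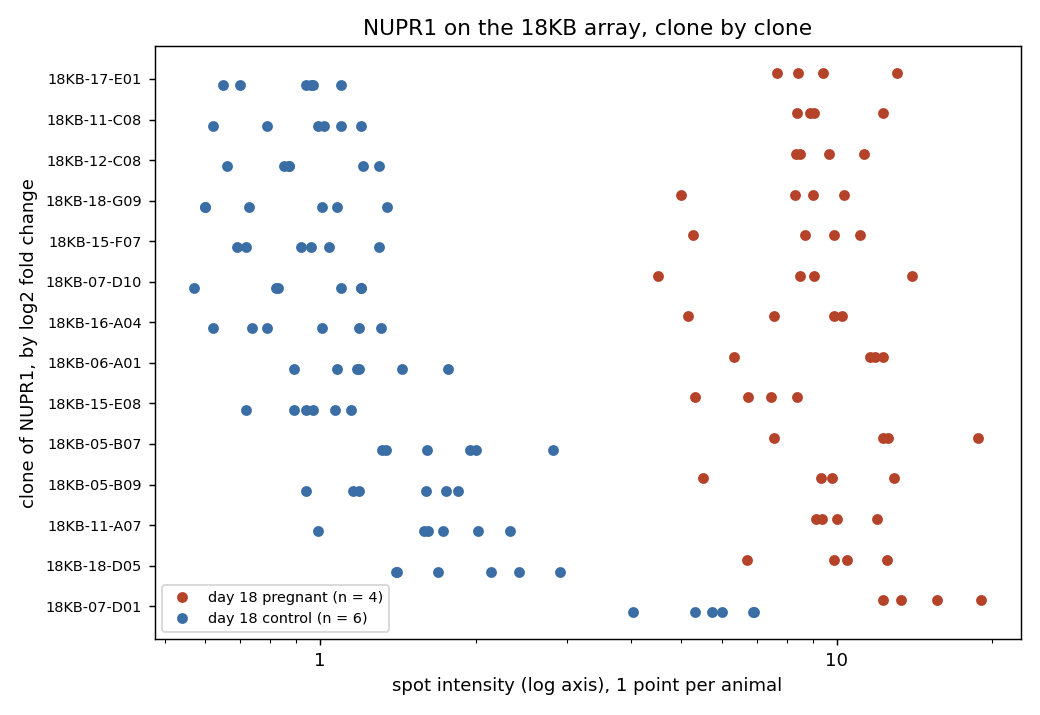
Intensity of each of the 14 NUPR1 clones of the 18KB array, on a log axis with 1 point per animal, ordered by log2 fold change with the largest at the top. In each of the 14 clones the 4 pregnant animals lie right of the 6 controls, and the log2 fold change is smallest for the clone at the bottom, 18KB-07-D01 (1.38).

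TXNIP read above every control in every pregnant animal on both arrays, and passed the test on the 18KB array. On the 18KB array the geometric mean of its 3 clones was 29.7 for pregnant 316, 28.8 for 426, 28.6 for 447 and 20.1 for 448, whereas the controls lay between 6.98 and 14.1 around a median of 9.94. The groups did not overlap, as in 22.3% of the rows of this array with pregnant above control. Within the pregnant group 316, 426 and 447 lay almost together and 448 lay below them. Log2 intensity averaged 4.73 ± 0.27 over the pregnant group (SD, n = 4) and 3.29 ± 0.42 over the controls (SD, n = 6), a log2 fold change of 1.44 ± 0.24 (limma adjusted p = 0.000794, exact permutation p = 0.00476).

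All 3 TXNIP clones gave similar fold changes. Clones 18KB-14-E11 and 18KB-16-F03 had mean intensities of 68.8 and 67.0 in pregnant animals and of 26.6 and 22.8 in controls, while 18KB-04-H11 had 4.22 in pregnant animals and 1.76 in controls. Their folds were 2.68, 3.004 and 2.48, and all 3 were called.

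On the 18KO array TXNIP read 91.7 for pregnant 316, 69.1 for 426, 75.4 for 447 and 38.4 for 448, whereas the controls lay between 7.76 and 36.6 around a median of 27.7. The groups again did not overlap, as in 4.28% of the rows of that array with pregnant above control. Pregnant 448 was again the lowest of its group and lay close to the highest control, 434. The log2 fold change was 1.53 ± 0.41, and with an adjusted p of 0.0259 over the whole array it was not called (exact permutation p = 0.00476); of the clones of that array 1.17% were called higher. When adjusted over named genes alone, most of which the authors had picked as differing, its p was 0.00358. The 18KO hybridisation of pregnant 316 was a later repeat, per its label, set onto the scale of the rest through ratios to samples run alongside it. Without that animal the log2 fold change was 1.37 ± 0.45 (limma adjusted p = 0.0825), and without control 427, the lowest on this array, it was 1.23 ± 0.30.

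The effect on TXNIP was compared between the arrays. The difference of the log2 fold changes, 18KB minus 18KO, was -0.09 ± 0.52 (limma adjusted p = 0.999 over the 10 genes named on both). This fit took both columns of an animal as independent. With the animal as a replicate block the difference was -0.094 ± 0.318. It depended on scaling: with equal column medians the fold change of TXNIP was 0.61 ± 0.24 on the 18KB array and not called, and 1.86 ± 0.32 on the 18KO array and called. The arrays then differed by -1.26 ± 0.44 (limma adjusted p = 0.0184), again in a fit that left out the pairing of columns by animal. Equal medians move this difference by the same amount for each of the 10 genes, apart from values at the floor. That p therefore also measures the rescaling and is not particular to TXNIP. After quantile normalization the fold changes of TXNIP were 0.88 on the 18KB array, not called for its fold, and 1.64 on the 18KO array, called. The sign was positive on both arrays under each scaling tried.

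ACSS1 was read by 1 clone, on the 18KB array. It stood at 2.84 for pregnant 316, 4.97 for 426, 5.59 for 447 and 5.13 for 448, whereas the controls lay between 0.92 and 2.36 around a median of 1.43. The groups did not overlap, as in 22.3% of the rows of this array, although pregnant 316 lay near control 330. The controls themselves fell on 2 levels, with 330, 404 and 434 at 1.98 to 2.36 and 427, 440 and 449 at 0.92 to 1.04. The log2 fold change was 1.63 ± 0.32 (limma adjusted p = 0.00249, exact permutation p = 0.00476). The call was lost with equal column medians (0.80 ± 0.29), after quantile normalization (0.87 ± 0.29) and without pregnant 447 (1.52, adjusted p = 0.0108).

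CNDP2 did not pass the test, and its groups overlapped. The geometric mean of its 2 clones was 1.39 for pregnant 316, 2.93 for 426, 1.61 for 447 and 5.22 for 448, whereas the controls lay between 0.683 and 2.37 around a median of 1.22. Pregnant 316 and 447 lay within the control range. The log2 fold change was 1.01 ± 0.42 (95% interval 0.09 to 1.92, limma adjusted p = 0.0852, exact permutation p = 0.0667) and neither clone was called. Without pregnant 448 it was 0.64 ± 0.39, and with equal column medians 0.18 ± 0.42.

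The animal that was highest for CNDP2 was also highest for trophoblast transcripts, made by the outer cells of the conceptus. Of 20 trophoblast markers 3 had a name on the 18KB array (IFNT2, TKDP1 and TKDP4), and 2 of them (IFNT2 and TKDP1) were called higher as deposited. Both calls were lost with equal column medians (1.33 and 2.31), after quantile normalization (1.32 and 2.26), with 1 factor per animal (1.93 and 2.91), with the floor at the 10th percentile (1.95 and 2.47) and with the 3-column block (2.04 and 3.05). Their summed intensity ran from 1.44 in pregnant 316 to 41.7 in pregnant 448, against 0.955 to 1.79 in controls. Pregnant 316 lay within the control range for these markers as it did for CNDP2. The summed intensity of 3 stroma markers of the same array ran from 107 to 436 in pregnant animals and from 622 to 1415 in controls. The part of trophoblast RNA and of stroma content in the values of the 5 genes was not tested.

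The other genes were ordered differently among the pregnant animals. Pregnant 448, with the most trophoblast signal, was the lowest pregnant animal for TXNIP on both arrays, and pregnant 316, with the least, was the highest for TXNIP on both and the second for NUPR1. For ACSS1 pregnant 316 was the lowest of its group, and 448 lay between 426 and 447. The lead of 316 for TXNIP was small on the 18KB array (29.7, against 28.8 for 426 and 28.6 for 447). Its 18KO column was the later repeat set onto the scale of the rest. Without pregnant 448 the log2 fold changes on the 18KB array were 2.88 for NUPR1, 1.57 for TXNIP and 1.57 for ACSS1, all still called. These orders and fits are descriptions, and the part of trophoblast RNA was not tested by them.

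SLC25A25 did not pass the test on either array, and 1 control stood apart on the 18KB array. On the 18KB array its single clone read 1.59 for pregnant 316, 1.11 for 426, 1.51 for 447 and 0.97 for 448, whereas the controls lay between 1.06 and 5.72 around a median of 1.60. The log2 fold change was -0.50 ± 0.40 (95% interval -1.39 to 0.38, limma adjusted p = 0.366, exact permutation p = 0.348). On the 18KO array it read 0.35, 0.40, 0.41 and 0.47 in pregnant 316, 426, 447 and 448, against 0.32 to 2.09 in controls with a median of 0.61. Those readings lay near the 10th percentile of all values of that array (0.37). The log2 fold change there was -0.72 ± 0.47 (95% interval -1.74 to 0.29, limma adjusted p = 0.342, exact permutation p = 0.305).

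Control 404 held the highest SLC25A25 value on both arrays, at 5.72 against 1.74 in the next control on the 18KB array, and at 2.09 against 1.06 on the 18KO array. Without it the log2 fold change was -0.17 ± 0.23 on the 18KB and -0.39 ± 0.39 on the 18KO array. With equal column medians it was -1.33 ± 0.40 on the 18KB array (limma adjusted p = 0.0152) and -0.39 ± 0.42 on the 18KO array. The difference between the arrays was 0.22 ± 0.68 (limma adjusted p = 0.999) in the fit that took both columns of an animal as independent. With the animal as a replicate block its SE was 0.359.

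**Figure D3:**
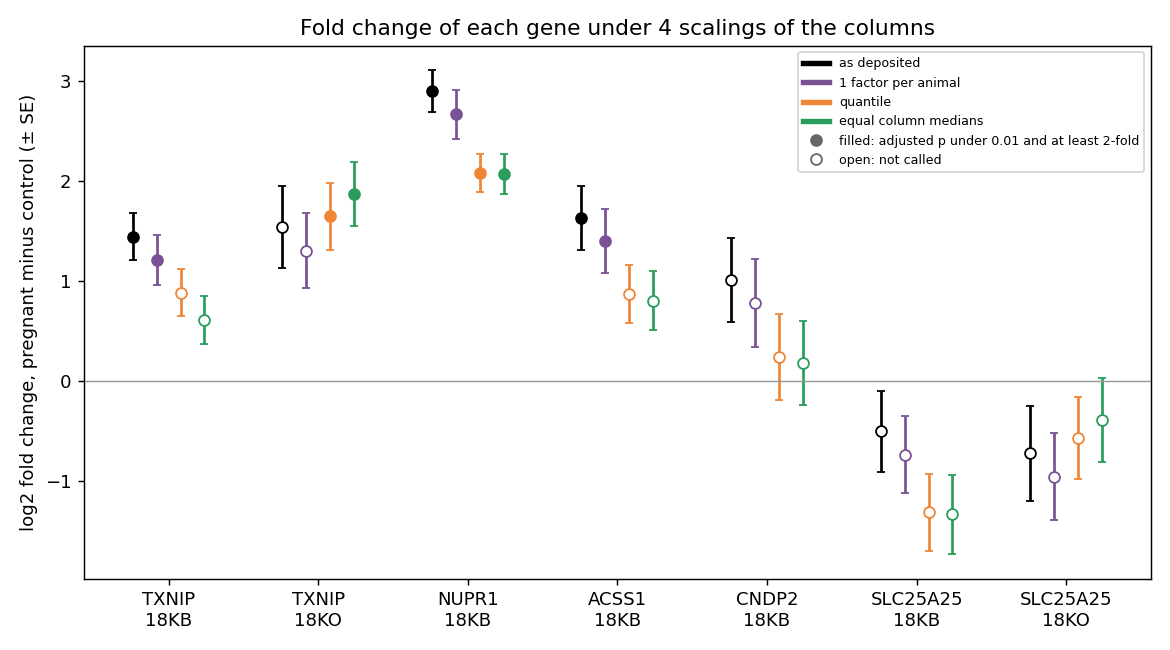
Log2 fold change of each gene and array, pregnant minus control, with its SE, under 4 scalings of the columns; filled points were called. NUPR1 is called under all 4 (2.06 to 2.89), while TXNIP is called under different scalings on the 18KB and on the 18KO array.

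On the 18KB array NUPR1, ACSS1, TXNIP and CNDP2 lay above the median of all rows and SLC25A25 below it. There ACSS1 ranked 54, TXNIP 61, CNDP2 71 and SLC25A25 75 among 86 named genes by log2 fold change. On the 18KO array, where 3 of 72 named genes (4.17%) were called higher, TXNIP ranked 4 and SLC25A25 14.

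**Figure D4:**
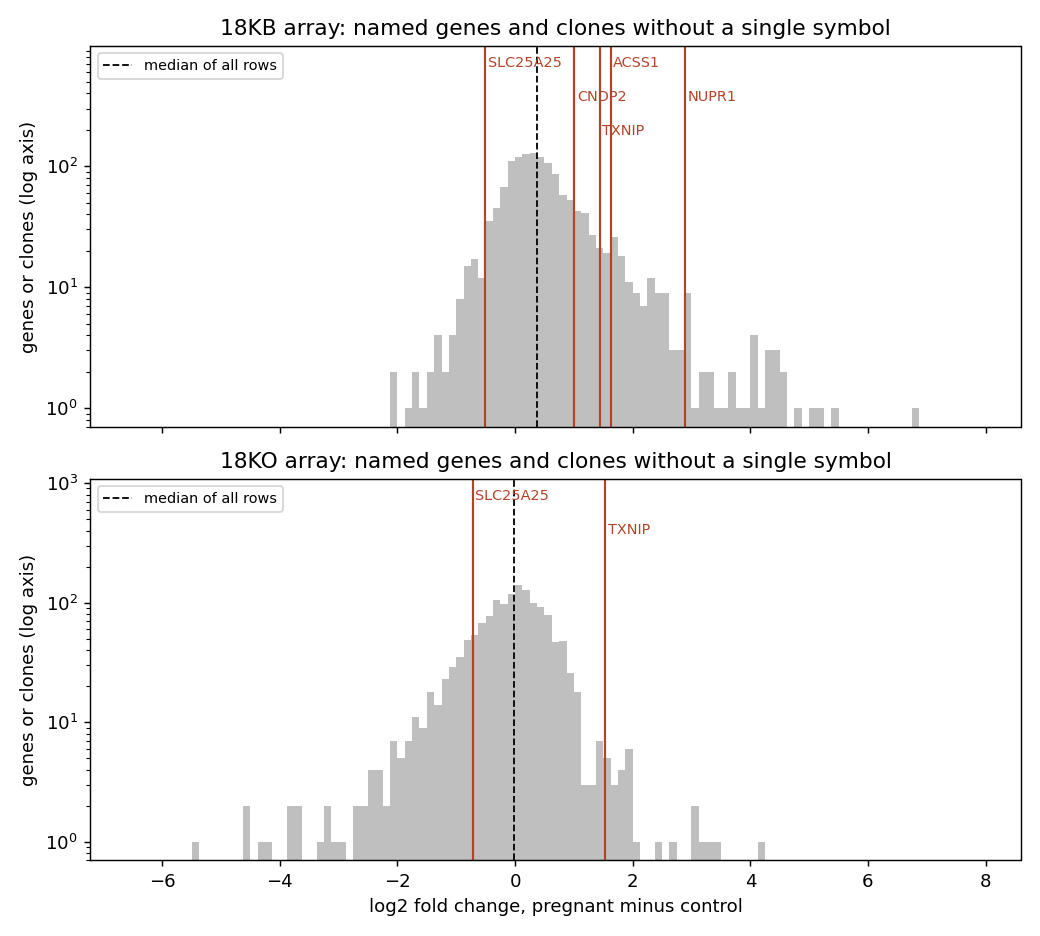
Histograms of the log2 fold change, pregnant minus control, over the 1420 rows of the 18KB and the 1471 rows of the 18KO array (counts on a log axis), with the genes marked as lines and the median of all rows dashed. That median is 0.38 on the 18KB and -0.02 on the 18KO array, and TXNIP sits at 1.44 and 1.53.

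Few other genes of the same pathways carried a name. Of 70 redox and thioredoxin genes 1 was named on each array. SELENOP, a selenium carrier protein, rose on the 18KB array: 30.3, 66.4, 39.3 and 25.9 in pregnant 316, 426, 447 and 448, against 6.16 to 24.1 in controls (log2 1.83 ± 0.41, limma adjusted p = 0.00503). That call was lost with equal column medians (1.0003), with 1 factor per animal from both arrays (1.60) and, narrowly, with the 3 columns that hold no value at the floor as a block (1.77, adjusted p = 0.01003). MT2A, a metallothionein that binds zinc and scavenges oxidants, was not called on the 18KO array (-2.21 ± 0.65, limma adjusted p = 0.0393), with 0.51 to 1.03 in pregnant animals and 0.58 to 10.7 in controls.

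None of 7 arrestin-domain genes and none of 60 other mitochondrial carrier genes was named on either array. Of 40 genes of glucose sensing and glycolysis 2 were named, both on the 18KB array, and 0 were called by limma, although both (2) had an unadjusted p under 0.05. PDK4, which inhibits the pyruvate dehydrogenase complex, had 1.02 ± 0.41 on the log2 scale (limma adjusted p = 0.0766). LDHA, a subunit of lactate dehydrogenase, had -0.99 ± 0.31 (limma adjusted p = 0.0287). LDHA was called lower with equal column medians (-1.82), after quantile normalization (-1.80) and with the 3-column block (-1.23). ADM, a peptide hormone, was called lower with equal column medians (-1.23) and after quantile normalization (-1.22). Equal column medians lower all log2 fold changes of the 18KB array by the same amount, apart from values at the floor. The LDHA spot was dim, with 0.33 to 0.70 in pregnant animals and 0.51 to 1.46 in controls.

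In the list of 54 genes of acetyl-CoA and fatty acids, FABP3, a fatty acid carrier, rose on the 18KB array (log2 fold change 4.03 ± 0.70, limma adjusted p = 0.00114), and the desaturase FADS1 was not called on the 18KO array (-1.15 ± 0.33). Among 30 dipeptidases and related genes MEP1B, a metalloprotease subunit, was the one named; it rose by 2.26 ± 0.32 on the log2 scale, with 2.53 to 2.88 in pregnant animals against 0.34 to 0.98 in controls. Of 60 stress-inducible genes 1 was named on the 18KB array and 3 on the 18KO array. GADD45G, a growth arrest protein, fell on the 18KO array (-3.24 ± 0.29). It read 0.161 to 0.239 in pregnant animals, below the 10th percentile of that array (0.37), and 1.37 to 3.61 in controls. With the floor at the 10th percentile its log2 fold change was -2.41, still called. The chaperone HSPA5 (-1.42 ± 0.37), the hypoxia-inducible factor EPAS1 (1.45 ± 0.37) and ADM (-0.40 ± 0.36) were not called as deposited. With equal column medians EPAS1 was called higher (1.78), and with 1 factor per animal HSPA5 (-1.65) and FADS1 (-1.39) were called lower.

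Likeness between genes was measured as Pearson's r over the 10 animals, after column medians were set equal and each group's mean was removed, so that it reads animal-to-animal spread and not the difference between groups. Over the 85 other named genes of the 18KB array, ACSS1 was most like PENK (r = 0.923), ABTB1 (0.830) and FABP3 (0.828). TXNIP was most like MEP1B (0.795), PNN (0.761) and PDK4 (0.729), NUPR1 like PLET1 (0.745), PDK4 (0.6004) and LGMN (0.563), CNDP2 like CD74 (0.782), LY6E (0.748) and IFNT2 (0.640), and SLC25A25 like SCP2 (0.755), PLSCR2 (0.745) and GABARAPL1 (0.681). On the 18KO array TXNIP was most like EPAS1 (0.753), PENK (0.741) and CLDN4 (0.731). Among the members themselves r ran from -0.088 for NUPR1 and SLC25A25 to 0.509 for ACSS1 and CNDP2 on the 18KB array. These r share hybridisations and are given as descriptions.

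SLC25A25 on the 18KO array was most like DUSP5 (r = 0.896), a phosphatase of mitogen-activated kinases, BTG2 (0.819), an antiproliferative protein, and PTGS2 (0.795), the inducible cyclooxygenase. All 3 are known as early response genes. Control 404 was the highest animal for each: 1.74 for DUSP5, 2.28 for BTG2 and 7.60 for PTGS2, followed in each by control 449 and then control 434. For SLC25A25 the order of the next controls was 434 (1.06) and 449 (0.93). These orders use values as deposited. Controls 449, 434 and 404 also had the highest column medians of the 18KO array (3.90, 2.745 and 2.70). The part of column scale in these orders was not tested. DUSP5 was a dim spot, with 0.08 to 0.22 in pregnant animals and 0.27 to 1.74 in controls. The 10th percentile of that array was 0.37.

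**Figure D5:**
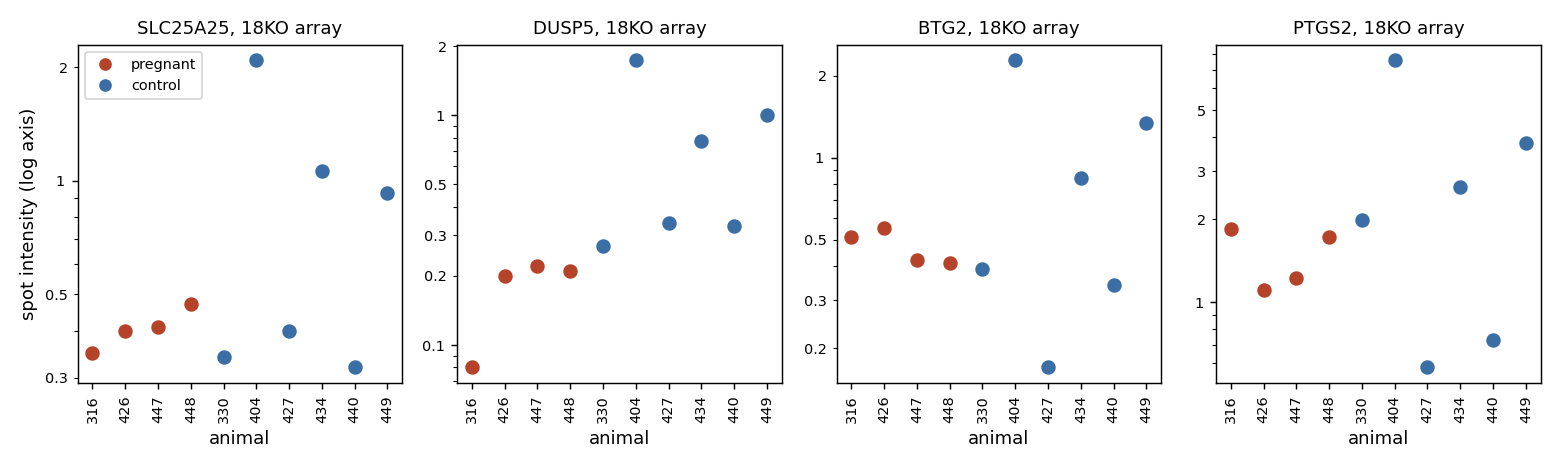
Intensity per animal on log axes of SLC25A25 and of the 3 named genes of the 18KO array most like it, pregnant animals left and controls right. In all 4 panels control 404 is the highest point, and controls 449 and 434 are the next 2. Values are as deposited, and the same controls had the highest column medians of that array.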

How the data were processed

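The authors deposited linear spot intensity values, 1 column per animal and array (33P-labelled cDNA, per the labels' protocols); 1 label mentions a normalization, and neither its method nor any background subtraction is described in the labels read here. Intensities below 0.01 were set to 0.01 before log2 was taken, with no other scaling. Clones with 1 symbol in GEO's platform annotation, which may be dated, were averaged per gene, and for all 23 member clones RefSeq (ARS-UCD2.0) gives the same symbol. Most clones are unnamed (1334 on the 18KB and 1399 on the 18KO array), and of these 11.5% and 3.29% were called in either direction, against 88.4% and 33.3% of named genes. Therefore genes and clones without a single symbol were fitted and adjusted together, while clone calls were adjusted over all 1536 clones of an array.

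Pregnant and control animals were compared in limma 3.58.1 (lmFit, eBayes; statmod 1.5.0 and R 4.3.3) with Benjamini-Hochberg adjustment. The fit was run on simulated data with independent noise and no shift of columns. That simulation cannot show how the fit behaves under the column shifts of these arrays. Single genes were also compared by two-sided exact permutation over 210 splits. No column repeated another. The labels' animal numbers pair both arrays; across 10 genes present on each, an animal's deviations from its group mean had r = -0.080 for pregnant 316 and between 0.352 and 0.928 for every other animal. Plots used Python 3.11.15 and matplotlib 3.10.9.

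Named are all members and their clones, every pathway-list gene with a name, and per member and array the 3 most alike genes. The members, lists and tests were chosen with earlier results of these data known, and naming itself rests on these samples. Alternatives were quantile normalization, equal column medians, 1 scaling factor for both arrays of an animal, a higher floor (10th percentile, 0.32 and 0.37), a pseudocount (5th percentile, 0.20 and 0.23), dropping the dimmest 25% of clones, array weights, other priors and thresholds, age as a covariate, other ways to join clones, adjustment over named genes and leaving out each animal. Of the marker lists, none of the 8 endothelial, 21 leukocyte and 6 red blood cell markers was named on either array; of 14 epithelial markers only CLDN4 (18KO array, 18.9 to 32.6 in pregnant animals, 1.75 to 19.7 in controls, not called as deposited but called higher with equal column medians, 2.29), of 9 smooth muscle markers 2 (both lower, 18KO array), and of 12 stroma markers 3 on the 18KB array (all lower) and 6 on the 18KO array (3 lower, 1 higher). With the floor at the 10th percentile these 4 calls of the 18KO array were lost (adjusted p = 0.0103 to 0.0233), as were those of COL1A2 on the 18KB array (0.0107) and of MYLK, 1 of the smooth muscle markers (0.0216). No clone or protein sequence was used here.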

Additional observations from a re-analysis of the deposited data

Results flagged for a closer look

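Of 104 groups of animals tested for a value far from the others, 7 were marked, where chance marks about 1 in 20, and groups read from the same spots are not independent. Among the genes described here these were TXNIP on the 18KB array in pregnant 448 (20.1, with 28.6 as the nearest in that group), SLC25A25 on the 18KB array in control 404 (5.72, next 1.74) and clone 18KB-06-A01 of NUPR1 in pregnant 447 (6.32, next 11.6). Among pathway and marker genes they were MT2A in pregnant 448 (0.51, next 0.92), TKDP1 in control 427 (0.401, next 0.245), and FADS1 (2.75, next 1.12) and FBLN1 (145.6, next 53.8) in control 449, whose 18KO column also had the highest median of that array (3.90).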

How the results depend on the processing

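NUPR1 kept its direction and its call under all 25 alternatives, at log2 1.38 to 3.15. The number of members called on the 18KB array was 1 of 5 (NUPR1) with equal column medians and 1 after quantile normalization, against 3 as deposited, and 2 to 3 when single animals were left out. On the 18KO array it was 0 as deposited and 1 gene and 1 clone (TXNIP) with equal column medians, quantile normalization, array weights or an adjusted p under 0.05, and 1 gene when adjusted over named genes alone; it was 0 to 0 when single animals were left out. Member clones called on the 18KB array ran from 13 to 18. The difference between arrays was -1.26 for TXNIP and -0.94 for SLC25A25 with equal column medians. That scaling moves all genes of an array by the same log2 amount, apart from values at the floor. Both differences therefore moved alike, from -0.094 and 0.219 as deposited. Without pregnant replicate 316 the difference was 0.013 for TXNIP (-0.16 without control 404), and the cause of that change was not tested. With the animal as a replicate block it was -0.094 ± 0.318 for TXNIP and 0.219 ± 0.359 for SLC25A25, and no call changed. All rows called on the 18KO array numbered 70 as deposited, 142 with equal medians, 122 after quantile normalization and 170 with 1 factor per animal, and adjusted over named genes alone 55 of 72 named genes were called there, against 24. The filter on dim clones left no value for SLC25A25 and FADS1 on the 18KO array and none for LDHA on the 18KB array. With the 3 columns of the 18KB array that hold no value at the floor as a block, an alternative added once the data had been seen, 3 genes were called. Dim spots limit 1 of the 2 CNDP2 clones (18KB-17-G07) and SLC25A25, above all on the 18KO array. With the dimmest 25% of clones dropped, CNDP2 was still not called (0.95 ± 0.30, limma adjusted p = 0.0232). The controls of ACSS1 were also dim (0.92 to 2.36). A single clone each limits ACSS1 and SLC25A25.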

Other observations

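On the 18KB array controls 330, 404 and 434 held the 3 highest control values of TXNIP and ACSS1, and also of SELENOP, MEP1B, PDK4 and FABP3. This order was seen in 14 of 86 named genes (16.3%) and in 126 of all 1420 rows (8.87%) of that array, and in 2 of 72 named genes (2.78%) of the 18KO array, where TXNIP was highest in controls 434, 449 and 404. The pattern was noticed in these values and was not tested. Controls 449, 434 and 404 also had the highest column medians of the 18KO array.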
